A study of Mus musculus with 5 samples.

Results

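Lysosomal hydrolases and lysosomal membrane proteins were followed across mouse co-cultures that form osteoclasts. The set was a list of 35 genes, with cathepsins and the proton pump left out, and every probe set whose annotated symbol was on the list was taken. Of the 35 genes, 30 were on the array, with 42 probe sets among 12488, and they are 30 of the 8251 genes measured. Aga, Arsb, Dnase2a, Manba and Sgsh had no probe set under their symbol and were not analysed here.

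The study compared 5 co-cultures, with 1 array each. ST2-T stromal cells carried all of them, and culture lasted 6 days in dexamethasone and 1,25-dihydroxyvitamin D3. The haematopoietic cells were Fos+/+ splenocytes, Fos-/- splenocytes, Fos+/+ bone marrow cells, Fos-/- splenocytes given a deltaNFAT virus, or Fos-/- splenocytes given a control virus for green fluorescent protein (GFP). Dishes were harvested whole, so each array holds RNA of blood-lineage and stromal cells together, and fewer cells of a type cannot be told apart from less RNA per cell. The labels give no age, number of animals or description of the deltaNFAT construct. With 1 array a group no test was possible, no value has an error, and each fold describes a pair of arrays.

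Lysosomes break down proteins, glycans, lipids and nucleic acids at low pH. Most of their soluble enzymes are tagged with mannose 6-phosphate and carried there by receptors, and heavily glycosylated membrane proteins such as LAMP1 and LAMP2 line the inside of the membrane. Macrophages are rich in lysosomes. Osteoclasts direct lysosomal vesicles to the surface that faces bone, where acid and enzymes are released to resorb it. Transcription factors of the TFEB and MITF family switch on many lysosomal genes through a short DNA element, and Fos is a subunit of AP-1, which binds an element of its own.

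A few facts of the whole series bear on these values. Intensities are on a linear scale, and those under a floor of 19.8 were set to it. Higher and lower are counted where 2 arrays differed at least 2-fold and the brighter array reached 39.6, and a gene that reached it in either array is termed bright. The brighter Fos probe set read between 426 and 607 in the Fos-/- arrays and 614 and 848 in the Fos+/+ arrays, which checks nothing because the stromal cells carry Fos of their own and the place of the probes relative to the deletion is unknown. Of 15 macrophage markers on the array, 14 or 15 lay above the floor in each culture, and of 18 stromal markers 15 to 17 did, while Thy1 was under the floor in all 5.

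Most members were expressed in every culture, and their range over the arrays was mostly under 2-fold. Of the 30, 26 lay above the floor in every array, 3 in some arrays and 1, the palmitoyl thioesterase gene Ppt1, in none. The 27 bright members differed between their highest and lowest array by a median of 1.53-fold, against 1.93-fold for all 5567 bright genes, and brightness was not matched in this comparison. Only 7 of the 27 spanned 2-fold or more (25.9%, against 46.9% of all bright genes), namely Creg1, Gm2a, Ids, Lamp2, Lipa, Man2b1 and Scarb2. The tetraspanin gene Cd63 stayed between 1641 and 1891, the tripeptidyl peptidase gene Tpp1 between 629 and 712, and the acid phosphatase gene Acp2 between 212 and 257.

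**Figure D1:**
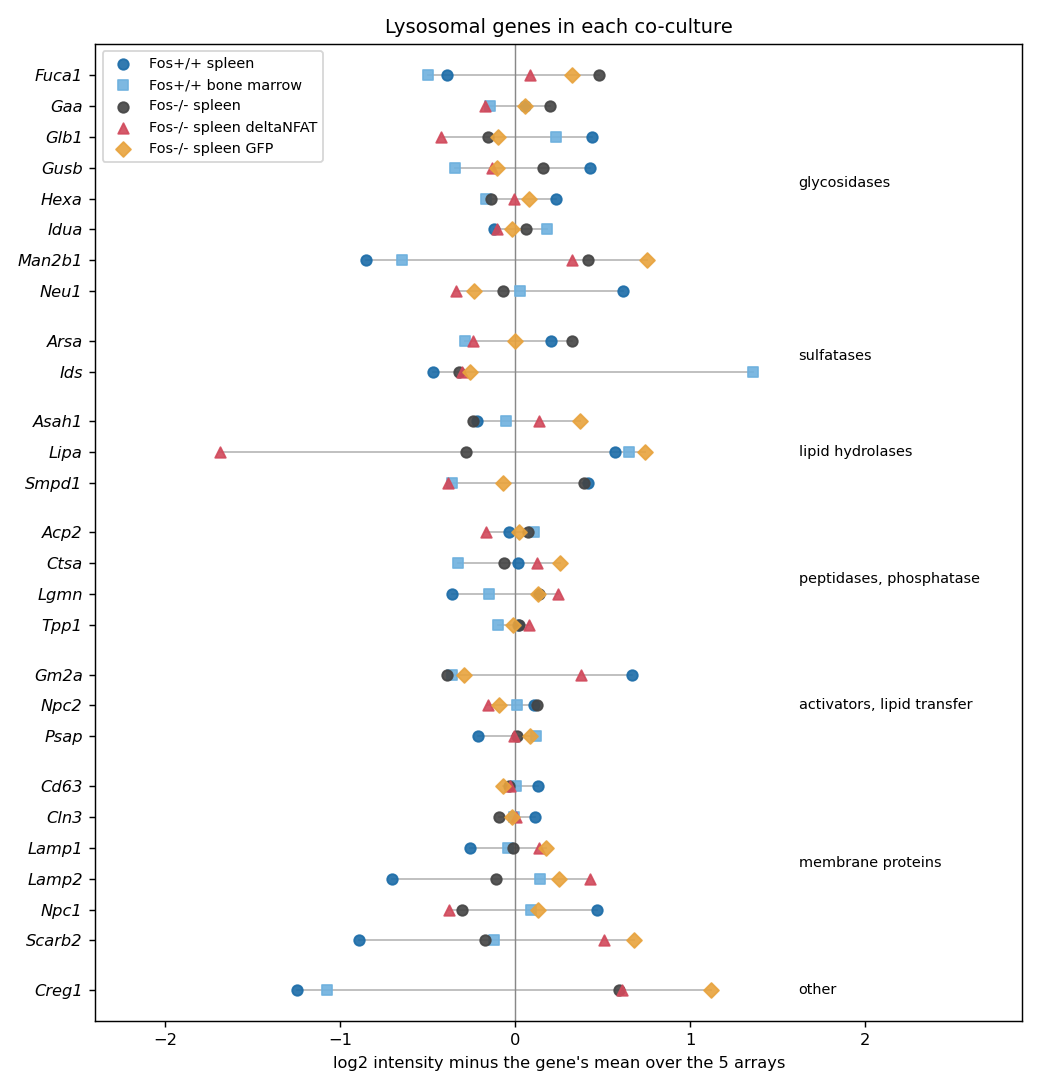
Each row is 1 of the 27 bright lysosomal genes, ordered by role, and each marker is 1 array; the x axis is log2 intensity minus the gene's own mean over the 5 arrays. Most rows are narrow, while Creg1 and Man2b1 have both Fos+/+ arrays on the left and the 3 Fos-/- arrays on the right, Ids has 1 marker far right (Fos+/+ bone marrow) and Lipa 1 far left (deltaNFAT).

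The loss of Fos was the first question of the design. In spleen, 1 of the 27 bright members was at least 2-fold higher in the Fos+/+ array, where 6.48% of all bright genes were, and 2 were lower, where 6.42% were. As shares of the members these are 3.70% and 7.41%, so the counts alone do not set the list apart. The median log2 ratio was -0.06 over the 28 members above the floor in either array, and -0.03 over all such genes. Of the 27, 17 differed by less than 1.5-fold (63.0%, against 71.3% of all bright genes), so here fewer members than genes lay that close.

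Creg1, which encodes a secreted and lysosomal glycoprotein, had the largest difference at the floor of 19.8, and Man2b1 at the highest floor tried, 90.7. Creg1 read 50.5 in Fos+/+ spleen and 57.0 in Fos+/+ bone marrow, and 182, 183 and 261 in the Fos-/- arrays without virus, with deltaNFAT and with GFP. The Fos+/+ arrays were both low and all Fos-/- arrays were high, and between the spleen arrays Creg1 was 3.59-fold lower with Fos. The lowest Fos-/- array was 3.18 times the highest Fos+/+ array. Both Fos+/+ readings lie under the higher floors of 65.1 and 90.7, with which the spleen log2 ratio of -1.85 became -1.48 and -1.001, the last only just at 2-fold.

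Man2b1, the lysosomal alpha-mannosidase that trims mannose from glycoproteins, followed the same order of genotypes. It read 380 in Fos+/+ spleen and 438 in Fos+/+ bone marrow, against 914, 860 and 1155 in the Fos-/- arrays without virus, with deltaNFAT and with GFP. The genotypes did not overlap, and the spleen arrays differed 2.40-fold. A dimmer second probe set of Man2b1, whose letter suffix marks a design under relaxed rules, went the other way, with 48.3 and 46.3 in the Fos+/+ arrays, 31.8 with deltaNFAT and values under the floor in the other Fos-/- arrays. It was at least 2.44-fold higher in Fos+/+ spleen, and at least 2.34-fold higher in Fos+/+ bone marrow than with GFP, so the direction for Man2b1 rests on the brighter probe set.

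Fuca1, the alpha-fucosidase that removes fucose from glycoproteins, read 114 and 106 in Fos+/+ spleen and bone marrow, and 208, 158 and 187 in the Fos-/- arrays without virus, with deltaNFAT and with GFP. Its spleen arrays differed 1.83-fold, short of 2-fold. Scarb2, a membrane protein that escorts glucocerebrosidase to lysosomes, was 1.65-fold lower in Fos+/+ spleen but did not separate the genotypes, with 154 in Fos+/+ bone marrow against 149 in Fos-/- spleen.

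The promoters of Creg1, Man2b1 and Fuca1 are shown because these members had the 3 lowest ratios of Fos+/+ over Fos-/- spleen and kept that order of genotypes in every array. The sequences come from RefSeq (build GRCm38.p6), which had an entry for 28 of the 30 members on the array, and give the 250 bases before the annotated start on the plus strand. Creg1 is at chr1:165763508-165763757, Man2b1 at chr8:85083019-85083268 and Fuca1 at chr4:135920476-135920725. Capitals would mark a match on either strand to CACGTG, to its longer form TCACGTG or to TGANTCA, and these windows hold none.
Creg1: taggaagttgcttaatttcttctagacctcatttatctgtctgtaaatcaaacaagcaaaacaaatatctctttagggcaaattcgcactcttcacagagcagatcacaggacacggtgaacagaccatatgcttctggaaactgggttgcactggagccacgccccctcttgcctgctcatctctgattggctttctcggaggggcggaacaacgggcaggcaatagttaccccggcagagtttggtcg
Man2b1: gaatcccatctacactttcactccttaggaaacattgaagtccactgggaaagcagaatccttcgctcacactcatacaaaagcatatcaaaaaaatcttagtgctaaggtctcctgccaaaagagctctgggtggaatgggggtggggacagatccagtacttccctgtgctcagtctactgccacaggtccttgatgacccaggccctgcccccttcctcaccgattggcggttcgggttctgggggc
Fuca1: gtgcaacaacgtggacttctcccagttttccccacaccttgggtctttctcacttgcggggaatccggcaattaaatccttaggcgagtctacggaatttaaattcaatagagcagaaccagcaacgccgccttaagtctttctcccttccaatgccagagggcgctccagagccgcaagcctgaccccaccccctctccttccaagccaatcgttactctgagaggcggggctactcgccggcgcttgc

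Upward, only Gm2a passed. It encodes the activator that presents GM2 ganglioside to the enzyme containing the Hexa subunit. Gm2a read 206 in Fos+/+ spleen and 169 with deltaNFAT, and 101, 99.0 and 106 in Fos+/+ bone marrow, Fos-/- spleen and GFP. The spleen arrays differed 2.08-fold, yet the Fos+/+ bone marrow array lay with the low ones. Hexa itself, the alpha subunit of beta-hexosaminidase, was 1.29-fold higher in Fos+/+ spleen.

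Lipa, Npc1 and Npc2 act on cholesterol in the lysosome, and the first pair had higher values with Fos in spleen. Lipa, the acid lipase that frees cholesterol from its esters, read 94.8 in Fos+/+ and 52.5 in Fos-/- spleen and was 1.81-fold higher. Npc1, the membrane protein that passes cholesterol out of the lysosome, read 329 against 192 and was 1.71-fold higher. Npc2, the soluble carrier that hands cholesterol to it, read 2797 against 2830. None of these 3 passed 2-fold between the spleen arrays. Between Fos+/+ bone marrow and GFP, Lipa and Npc1 differed only 1.07-fold and 1.03-fold, with the Fos+/+ array the lower one.

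Ctsa, Glb1 and Neu1 encode parts of 1 enzyme complex, in which the peptidase of Ctsa holds the beta-galactosidase of Glb1 and the sialidase of Neu1. Glb1 read 226 and 195 in the Fos+/+ arrays and 149, 124 and 155 in the Fos-/- arrays without virus, with deltaNFAT and with GFP. Neu1 read 121 and 80.5 in the Fos+/+ arrays and 75.1, 62.5 and 67.0 in the Fos-/- arrays in that order. Both genes were higher in each Fos+/+ array than in any Fos-/- array, and their spleen ratios were 1.51-fold and 1.61-fold. For Neu1 the gap between genotypes was 1.07-fold, and it was lost after quantile normalization and with both higher floors. Ctsa read 703 in Fos+/+ and 664 in Fos-/- spleen, 553 in Fos+/+ bone marrow and 830 with GFP, and did not follow them.

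**Figure D2:**
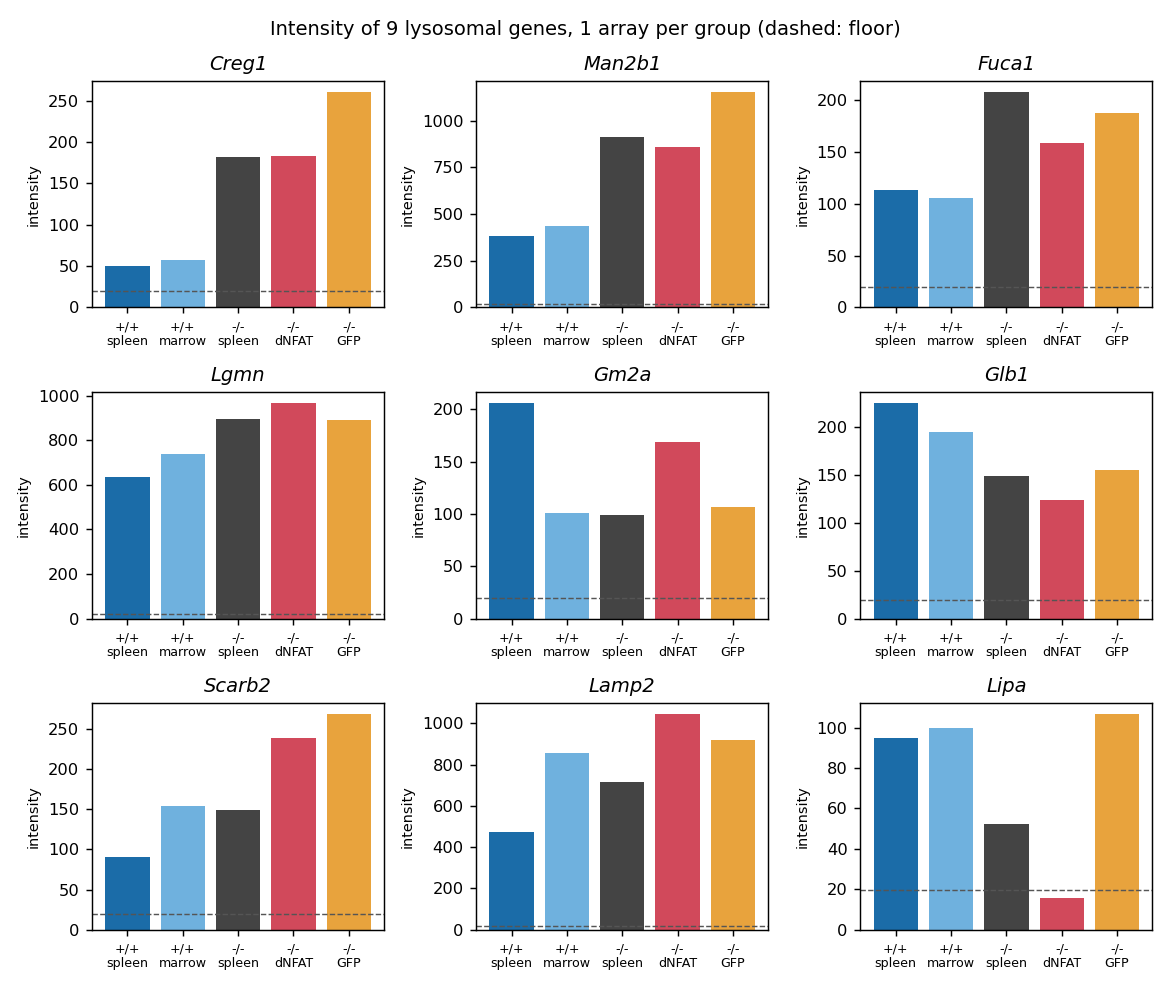
Bars give the intensity of 9 lysosomal genes in the 5 arrays (dNFAT stands for deltaNFAT), each panel on its own axis from 0, with the floor of 19.8 dashed. Creg1, Man2b1, Fuca1 and Lgmn are low in both Fos+/+ arrays, Glb1 is high in both, Gm2a is high in Fos+/+ spleen and deltaNFAT, and Lipa is under the floor with deltaNFAT alone.

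Over all arrays, the 2 Fos+/+ arrays were compared with the 3 Fos-/- arrays, a description added after the values were seen. The arrays of a genotype differ in tissue or virus and are not replicates. Among the 27 bright members, 3 were higher in both Fos+/+ arrays than in any Fos-/- array (11.1%, where 15.1% of all bright genes were) and 5 were lower (18.5%, where 10.0% were). The 3 were Glb1, Neu1 and Cd63, and the 5 were Creg1, Man2b1, Fuca1, Lgmn and Lamp1. Lgmn encodes legumain, a peptidase that cuts after asparagine. It read 635 and 736 in the Fos+/+ arrays and 892 to 967 in the Fos-/- arrays. For Lamp1 and Cd63 the nearest arrays of the genotypes were 1.02-fold and 1.03-fold apart, so that their separation is slight.

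CACGTG is the core of the element bound by the TFEB family, TCACGTG extends it by 1 base, and TGANTCA is the AP-1 element. In the 300 bases from 250 before to 50 after the start, TCACGTG was found for 8 of the 28 members (28.6%), against 3.77% of all 32851 promoters and 6.78% of 6576 array genes with an entry. The same 8 members, Arsa, Cln3, Ctsa, Gaa, Gla, Glb1, Lamp1 and Lgmn, hold CACGTG, which 7.15% of all promoters and 11.5% of array genes have, because every TCACGTG contains it. TGANTCA was found for 3 of the 28 (10.7%), Glb1, Neu1 and Psap, against 7.81% of all promoters and 7.51% of array genes. None of the 5 members that passed 2-fold in any of the 4 planned comparisons held 1 of these motifs. With TCACGTG in 8 and TGANTCA in 3 of the 28, most members lack both, so nothing is read from this count. A match is a description of letters and not a binding site.

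Lamp1 is shown for its 4 CACGTG matches, Glb1 for a TGANTCA that overlaps a TCACGTG, and Neu1 for its TGANTCA. Glb1 and Neu1 were 2 of the 3 members higher in both Fos+/+ arrays. The remaining one, Cd63, had no TGANTCA match, and a link between this motif and Fos was not tested. Capitals mark the matches and lower case the remaining bases, on the plus strand up to the base before the start. The windows are chr8:13159061-13159160 for Lamp1, chr9:114400978-114401077 for Glb1 and chr17:34931093-34931252 for Neu1.
Lamp1: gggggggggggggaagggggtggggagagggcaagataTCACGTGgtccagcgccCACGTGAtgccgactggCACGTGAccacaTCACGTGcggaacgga
Glb1: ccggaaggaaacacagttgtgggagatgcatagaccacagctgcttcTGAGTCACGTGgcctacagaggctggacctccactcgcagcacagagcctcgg
Neu1: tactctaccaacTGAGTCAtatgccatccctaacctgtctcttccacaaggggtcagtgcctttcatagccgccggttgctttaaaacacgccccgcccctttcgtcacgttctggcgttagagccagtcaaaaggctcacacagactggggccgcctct

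Psap, which encodes the precursor of the saposin activators and also has a TGANTCA match, by its brightest probe set read 1718 and 2156 in the Fos+/+ arrays and 1980 to 2109 in the Fos-/- arrays, where the genotypes overlapped.

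A pair of ratios that share no array could be set side by side, Fos+/+ over Fos-/- spleen and Fos+/+ bone marrow over GFP. Bone marrow over GFP was also added later. It differs in tissue and virus as well, so genotype cannot be told apart from these. There 2 of the 27 bright members were lower, where 5.97% of all bright genes were, and 1 was higher, where 9.23% were. The 2 lower genes were Creg1 at 4.58-fold and Man2b1 at 2.63-fold, the same that passed between the spleen arrays, and the higher one was Ids. Fuca1 was 1.77-fold and Scarb2 1.74-fold lower there. Over the 27 members the log2 ratios correlated with Pearson's r = 0.63 and Spearman's rho = 0.44, and 14 of 27 had the same sign (51.9%, against 61.0% of genes bright in both). Over those 4741 genes r was 0.37 and rho 0.32. Creg1 (-1.85 and -2.19) and Man2b1 (-1.27 and -1.40) were the members lowest in both ratios. Such points weigh heavily in r, which was not computed without them. Members are not independent points, since they share the arrays and the dishes' cell content.

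**Figure D3:**
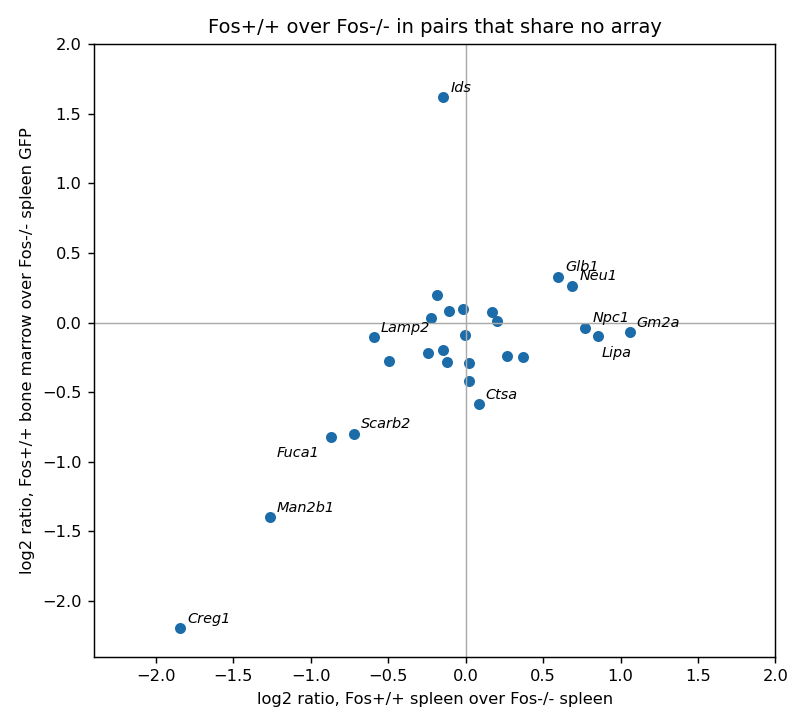
Each point is 1 of the 27 bright lysosomal genes, with its log2 ratio in Fos+/+ over Fos-/- spleen on the x axis and in Fos+/+ bone marrow over GFP on the y axis. Creg1, Man2b1, Fuca1 and Scarb2 lie in the lower left, Ids is high on the y axis alone, and Gm2a, Lipa and Npc1 are to the right near 0 on the y axis.

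Summed markers of macrophages and osteoclasts differed along with genotype, while those of neutrophils did not. Over 15 macrophage markers the summed intensity was 12044 and 14543 in the Fos+/+ arrays and 17522 to 19527 in the Fos-/- arrays. Bright markers weigh most in this sum, among them C1qa, C1qb and C1qc, which were higher in each Fos-/- array than in either Fos+/+ array. Csf1r and Cd14 did not separate the genotypes, with Csf1r at 1510 and 1255 in the Fos+/+ arrays and 1291 to 1485 in the Fos-/- arrays. Between the spleen arrays 12 of the 15 were lower with Fos and 3 were higher, Cd68 among them. Of 5846 genes above the floor in either spleen array, 3096 were lower and 2750 higher. Over 11 osteoclast markers the sum was 16073 and 12084 in the Fos+/+ arrays and 1865 to 4014 in the Fos-/- arrays. In each Fos-/- array 8 to 11 of them lay above the floor. Over 18 stromal markers the sum ran from 15316 to 18516 in all arrays, but single genes differed more. Between the spleen arrays, 1 of 16 bright stromal markers was higher with Fos and 3 were lower. These are 6.25% and 18.8%, against 6.48% and 6.42% of all bright genes. The higher one was Dcn, at least 16.1-fold, and the lower ones Igfbp4 at 3.97-fold, Vcam1 at 2.52-fold and Tagln at 2.23-fold. Neutrophil markers, 10 in number, summed to 1388 in Fos+/+ spleen and 9820 in Fos+/+ bone marrow. The Fos-/- arrays lay between, with 3220 without virus, 4787 with deltaNFAT and 6996 with GFP. The part of these cell types in the values of Creg1, Man2b1, Fuca1 and the other members was not tested.

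What deltaNFAT does in cells without Fos was the next question. NFAT proteins are transcription factors that act downstream of calcium signals. Compared with GFP, 0 of the 27 bright members were at least 2-fold higher with deltaNFAT, where 3.54% of all bright genes were, and 1 was lower, where 2.58% were. The median log2 ratio was -0.09 over 29 members and 0.00 over all genes above the floor. Of these members 22 lay below 0 and 7 above it, against 2913 below and 3018 above among 5931 genes. Of the 27 bright members, 25 (92.6%, against 85.1% of all bright genes) differed by less than 1.5-fold.

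The lower member was Lipa. It read 15.8 with deltaNFAT, under the floor, and 107 with GFP, 52.5 in Fos-/- spleen without virus, 94.8 in Fos+/+ spleen and 99.9 in Fos+/+ bone marrow. It was at least 5.39-fold lower with deltaNFAT than with GFP, on a single dim probe set. With higher floors of 65.1 and 90.7 it no longer passed, with log2 ratios of -0.71 and -0.23. Gm2a was the largest difference upward at 1.59-fold, with 169 against 106, which the level of 206 in Fos+/+ spleen exceeded. Among the bright members Lamp2 followed at 1.13-fold, while the dim Galc was at least 1.24-fold higher.

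The genes that separated the genotypes were chosen with the deltaNFAT array among the Fos-/- ones, so its side of the gap is given by that choice, and only the distance to GFP is described. Creg1 was 1.42-fold lower with deltaNFAT than with GFP, and its 183 lay beside the 182 of Fos-/- spleen without virus. Man2b1 was 1.34-fold lower and read 860, against 914 without virus and 380 in Fos+/+ spleen. Npc1 was 1.42-fold lower with deltaNFAT at 183 against 260, and Neu1 and Glb1, the higher genes with Fos, were 1.07-fold and 1.25-fold lower. None of these passed 2-fold. Osteoclast markers summed to 4014 with deltaNFAT and 1865 with GFP, and macrophage markers to 18038 and 19527. Neutrophil markers summed to 4787 with deltaNFAT and 6996 with GFP. Their part in these values was not tested.

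**Figure D4:**
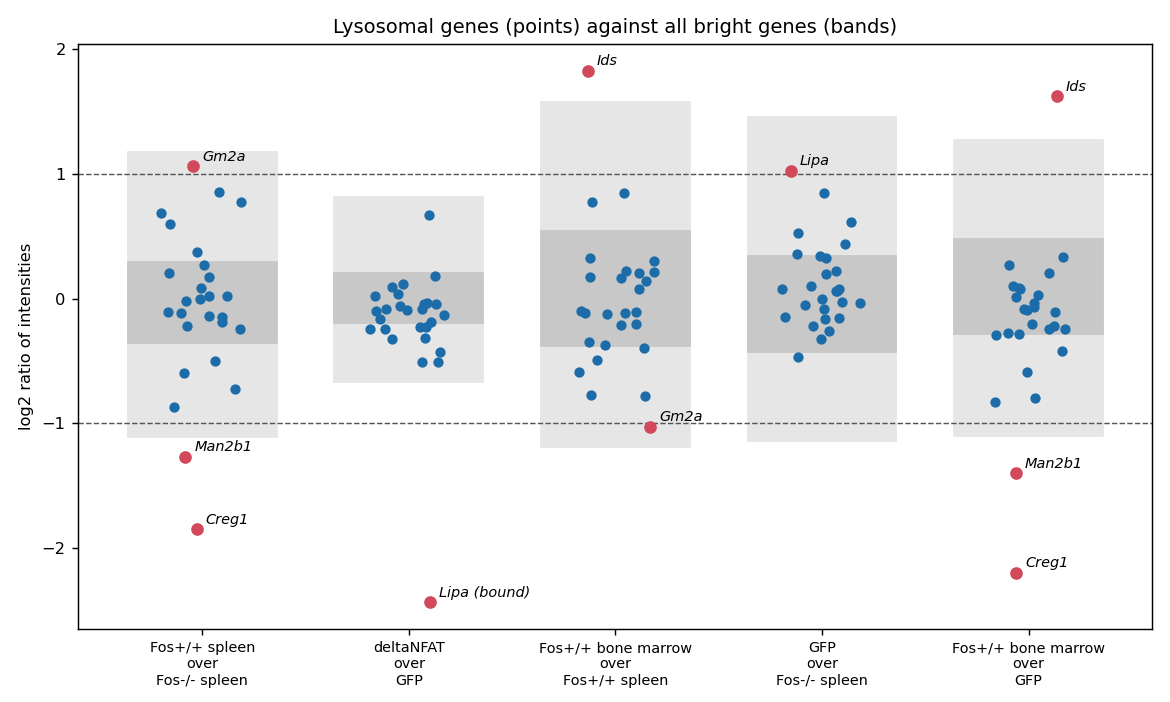
Points are the 27 bright lysosomal genes by comparison, with those past 2-fold in red and named; the y axis is the log2 ratio, dashed lines mark 2-fold, and grey bands span the 25th to 75th (dark) and 5th to 95th (light) percentile of all bright genes. Most points lie within the light band. Creg1 and Man2b1 fall below it for Fos+/+ over Fos-/- spleen and for bone marrow over GFP, which differs in tissue and virus too. Lipa, a bound, falls below it for deltaNFAT over GFP.

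Between the Fos+/+ cultures, bone marrow over spleen, 1 of the 27 bright members was higher, where 13.2% of all bright genes were, and 1 was lower, where 7.18% were. The median log2 ratio was -0.10 over 29 members and 0.09 over all genes above the floor. The higher gene was Ids, the iduronate sulfatase that acts on heparan and dermatan sulfate. Its probe set read 298 in bone marrow and 84.0 to 96.9 in the other arrays, 3.54-fold over spleen. A second probe set of Ids, without a letter suffix, read 74.3 in bone marrow and 48.0 in spleen, with 76.7 and 81.8 in the virus arrays, so it did not single out bone marrow, and the third was under the floor throughout. The difference for Ids therefore belongs to 1 of its 3 probe sets.

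Gm2a was the lower gene, 2.03-fold lower in bone marrow. The Fos+/+ spleen array, in which Gm2a was high, also serves the comparison with Fos-/- spleen, so these are not separate observations. Smpd1, the acid sphingomyelinase, read 655 in Fos+/+ spleen, 644 in Fos-/- spleen, 381 in bone marrow, 376 with deltaNFAT and 467 with GFP, and was 1.72-fold lower in bone marrow. Gusb, the beta-glucuronidase, was 1.71-fold lower at 647 against 1106. Upward, Lamp2 at 1.80-fold and Scarb2 at 1.71-fold came nearest to passing. Neutrophil markers were higher in the bone marrow array, with the sums given above, and their part in these values was not tested.

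**Figure D5:**
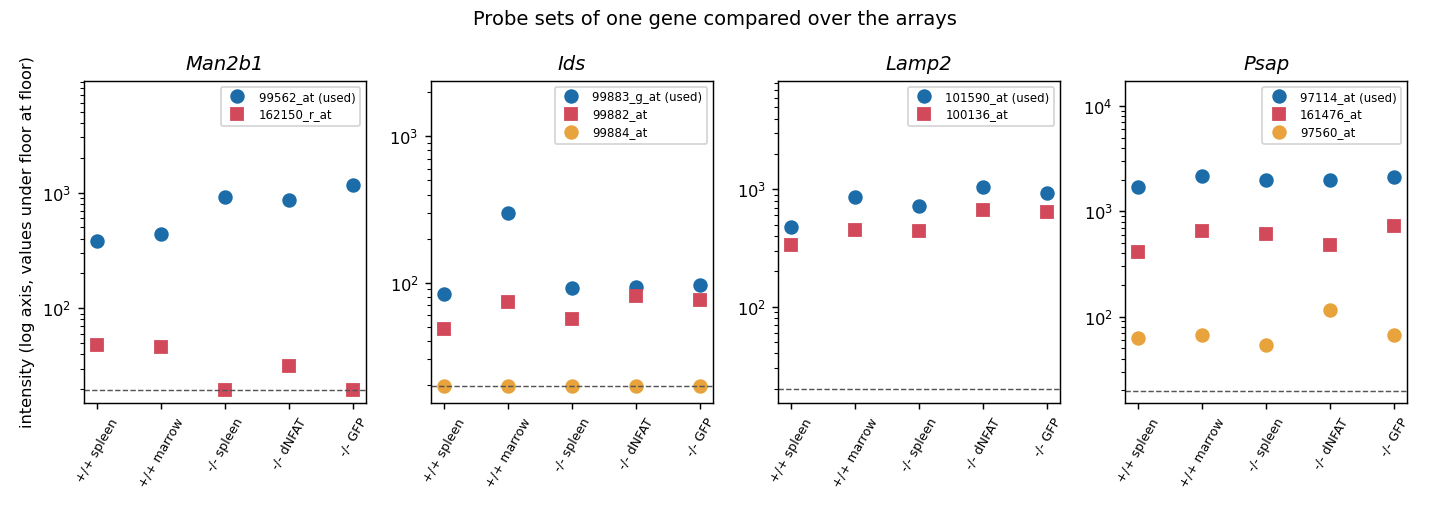
Intensity on a log axis for every probe set of Man2b1, Ids, Lamp2 and Psap over the 5 arrays (dNFAT stands for deltaNFAT), with values under the floor drawn at the dashed floor; the names give the probe set used. Both Lamp2 probe sets run alike, those of Man2b1 run oppositely between genotypes, and only 1 Ids probe set has a high bone marrow value.

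Infection with the GFP virus was compared with no virus in Fos-/- spleen. Here 1 of the 27 bright members was higher, where 10.3% of all bright genes were, and 0 were lower, where 7.06% were. The median log2 ratio was 0.07 over 28 members and -0.09 over all genes above the floor. The gene was Lipa, 2.03-fold higher. After quantile normalization its log2 ratio was 0.97, short of 2-fold, and with the higher floors 0.71 and 0.23. The GFP array is shared with the deltaNFAT comparison, in which Lipa was lower. Scarb2 was 1.80-fold and Asah1, the acid ceramidase, 1.53-fold higher. Smpd1 was 1.38-fold and Arsa, the arylsulfatase that acts on sulfatide, 1.25-fold lower. A second, dimmer probe set of Arsa went the other way, with 98.5 with GFP and 49.3 without virus. Neutrophil markers summed to 6996 with GFP and 3220 without virus, and their part was not tested.

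Across all arrays, 6 of the 27 bright members were higher in both virus arrays than in any of the 3 uninfected ones (22.2%, where 14.0% of all bright genes were) and 2 were lower (7.41%, where 21.1% were), a comparison also added later. The higher genes were Scarb2, Lamp1, Lamp2, Asah1, Ctsa and Creg1, and the lower ones Neu1 and Npc2. Scarb2 read 239 and 269 with virus and 90.5 to 154 without. Lamp2 read 1045 and 921 with virus and 476 to 856 without, and its other probe set read 662 and 640 with virus and 335 to 452 without. For Creg1 the separation was 1.01-fold. Both virus arrays are Fos-/-, and virus and genotype overlap in this split, and 3 of its genes, Creg1, Lamp1 and Neu1, also separated the genotypes.

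The members on the array were also grouped by role. Of 10 glycosidases, 8 were bright. In Fos+/+ over Fos-/- spleen Man2b1 alone passed 2-fold and was lower (12.5% of the 8, against 6.42% of all bright genes). Gaa, the acid alpha-glucosidase that degrades glycogen, stayed between 274 and 355 and Idua, the iduronidase, between 60.7 and 74.8. Galc and Gla, which act on galactosylceramide and globotriaosylceramide, did not exceed 25.5 in any array, so little can be read from them. Of the 6 membrane proteins none passed in any of the 4 planned comparisons by its brightest probe set. Cln3, mutated in a childhood neuronal storage disease, stayed between 170 and 196 by that probe set. Its other probe set ran from 31.5 to 104 and was 2.73-fold lower with deltaNFAT than with GFP. By substrate, 1 of the 4 bright glycoprotein-degrading members was lower in Fos+/+ spleen (Man2b1), where 6.42% of all bright genes were. Of 9 sphingolipid members 7 were bright, and 1 of these was higher (Gm2a), where 6.48% of all bright genes were. None of the 3 bright glycosaminoglycan members passed between these spleen arrays. In Fos+/+ bone marrow over spleen 1 of the 3 was higher (Ids, by 1 of its probe sets), where 13.2% of all bright genes were. In Fos+/+ over Fos-/- spleen the log2 ratios of the glycoprotein members were -1.27 for Man2b1 by its brighter probe set, -0.87 for Fuca1, 0.08 for Ctsa and 0.69 for Neu1. The glycoprotein members thus differed in direction.

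Of 13 further lysosomal genes on the array, 12 were bright. In Fos+/+ over Fos-/- spleen 1 was higher and 1 lower (8.33% each, against 6.48% and 6.42% of all bright genes). The higher was the hyaluronidase gene Hyal2 at 3.29-fold, which read 195 and 59.2 in these arrays and 3.3 in Fos+/+ bone marrow. A second, dimmer probe set of Hyal2 read 27.1 in Fos-/- spleen and lay under the floor in every other array. The differences given for Hyal2 here and below therefore rest on the brighter probe set. The lower was the dim lipid transporter gene Abca2 at 2.14-fold. Of 24 genes of enzyme sorting, lysosome traffic and its regulators, 18 were bright, and of these 2 were higher and 3 lower (11.1% and 16.7%, against 6.48% and 6.42% of all bright genes). Igf2r, the large mannose 6-phosphate receptor, read 170 and 152 in the Fos+/+ arrays, 27.3 in Fos-/- spleen, 45.8 with deltaNFAT and a value below 0 with GFP, and was 6.23-fold higher in Fos+/+ spleen. Gga2, an adaptor that packs these receptors into vesicles, read 567 and 362 in the Fos+/+ arrays and 205 to 225 in the Fos-/- arrays, 2.75-fold higher. The lower genes were Snx2, a sorting nexin, at 2.01-fold, and the adaptor subunits Ap1b1 and Ap3m1 at 3.49-fold and 2.29-fold. The adaptor genes were low in Fos+/+ spleen, but read 351 and 181 in Fos+/+ bone marrow, and a second probe set of Ap1b1 read 71.2 in Fos+/+ and 56.0 in Fos-/- spleen. Tfeb lay under the floor in all 5 arrays and Mitf reached 40.6 at most.

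Of 11 cathepsins, 10 were bright. With Fos in spleen 1 was higher and 1 lower (10% each, against 6.48% and 6.42% of all bright genes). Ctsk, the collagen-degrading protease of osteoclasts, was 46.7-fold higher. Ctsh, an aminopeptidase of lysosomes, read 419 and 362 in the Fos+/+ arrays and 829 to 863 in the Fos-/- arrays, and was 2.06-fold lower in Fos+/+ spleen. With deltaNFAT over GFP, 1 of 10 bright cathepsins was higher, Ctsk at 4.69-fold, and 0 were lower. Of 13 bright further lysosomal genes, 1 was higher (Hyal2, 3.80-fold) and 1 lower (Abca2, at least 2.57-fold). Among 18 bright sorting genes Igf2r alone passed there, at least 2.31-fold higher. Of all bright genes 3.54% were higher and 2.58% lower. In Fos+/+ bone marrow over spleen, 2 of 11 bright further lysosomal genes were lower. They were Hyal2, at least 9.84-fold, and Naglu, a glucosaminidase of heparan sulfate breakdown, 2.25-fold. Of 20 bright sorting genes, Ap3m1, Snx2 and Ap1b1 were 3.27-fold, 2.82-fold and 2.66-fold higher there, and 0 of 10 bright cathepsins passed. Of all bright genes 13.2% were higher and 7.18% lower. With GFP over no virus, 2 of 17 bright sorting genes were higher (11.8%, against 10.3% of all bright genes), Vps41 at 2.03-fold and Snx2 at 2.01-fold. None of the 13 bright further lysosomal genes and 10 bright cathepsins passed.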

How the data were processed

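Each array came as linear intensities deposited by the authors, 1 for each of 12488 probe sets. Scanner software and scaling are not given in the labels. A mean trimmed by 2% at both ends came to 100.1 in all 5 arrays, and between 20.3 and 22.4% of intensities did not exceed 0. Arrays were scaled to an equal trimmed mean, values under the 40th percentile (19.8) were raised to it, and ratios were taken as log2. Symbols came from the platform annotation. Genes with several probe sets were represented by the brightest over the 5 arrays. A ratio against a value under the floor is a lower bound, written "at least". Named genes were all members past 2-fold, the 2 next in each direction, and up to 4 genes of each other list whose brighter array reached 4 times the floor. Other genes were chosen after their values were seen. The members and lists were chosen with earlier results of these data known. The calling rule was run on simulated data, with 4-fold changes put into genes at 4 times the floor or more. That run does not cover smaller or dimmer differences. Alternatives were deposited values, quantile normalization, other floors, means of probe sets, unsuffixed probe sets and a 1.5-fold rule. The number of arrays limits the precision. Python 3.11.15, numpy 2.4.6 and pandas 2.3.3 were used.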

Additional observations from a re-analysis of the deposited data

How the results depend on the processing

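Values as deposited moved no member count or median beyond the tolerances (1.5 times for a count, 0.1 for a median log2 ratio). A 1.5-fold rule counts more by construction. Its counts of 27 bright members follow, with the share of all bright genes in brackets. It gave 5 higher (13.2%) and 5 lower (15.4%) in Fos+/+ over Fos-/- spleen. For deltaNFAT over GFP it gave 1 higher (8.45%) and 1 lower (6.42%). For bone marrow over spleen there were 3 higher (23.3%) and 4 lower (16.0%). For GFP over no virus there were 3 higher (17.5%) and 0 lower (17.2%), and for bone marrow over GFP 1 higher (19.9%) and 5 lower (12.7%). Floors of 65.1 (60th percentile) and 90.7 (noise) left 0 members lower for deltaNFAT over GFP, 0 higher for GFP over no virus (also 0 after quantile normalization), and 1 lower without overlap in the virus arrays. Unsuffixed probe sets left 0 higher for bone marrow over spleen and for bone marrow over GFP, where Ids turned to a log2 ratio of -0.046. A floor at the 20th percentile was not run, since that percentile (-1.20) has no log2. In Fos+/+ over Fos-/- spleen, Creg1, Man2b1 and Gm2a passed under every alternative run, but several alternatives could not have failed. A 1.5-fold rule passes any gene past 2-fold, and the deposited arrays had nearly equal trimmed means already. Creg1 and Gm2a have 1 probe set each, and the brighter of the 2 for Man2b1 dominates their mean. The higher floors changed the ratio of Creg1 alone, from a log2 ratio of -1.85 to -1.001 with the floor of 90.7. Neu1 no longer separated the genotypes after quantile normalization or with the higher floors. No paired analysis was possible because each group has 1 array.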
